A study of Mus musculus with 12 samples.

Results

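The genes described here build the MHC class II presentation pathway: H2-Aa, H2-Ab1, H2-Eb1, H2-Eb2, H2-DMa, H2-DMb1, H2-DMb2, H2-Oa, Cd74 and Ciita. They were taken by symbol, through their Ensembl gene IDs, from a table of 52636 genes, and all 10 were found and tested. RNA came from snap-frozen pancreatic ductal adenocarcinomas of KPC mice, which are engineered to develop this tumour. Of 4 groups of 3 mice, 2 received gemcitabine, a nucleoside analogue used against pancreatic cancer: KPC/CDH11+/- mice (heterozygous) and KPC/CDH11+/+ mice (wild-type). The other two groups were untreated mice of the same 2 genotypes, again the heterozygous and the wild-type. Every mouse, the wild-type ones included, therefore carried the KPC tumour alleles, on a background given as C57BL/6 and 129. Cdh11 encodes cadherin 11, through which fibroblasts and related mesenchymal cells adhere to each other. The sources used here do not give age, sex, drug dose or schedule, or the cells in which the Cdh11 allele was changed. The series asks how Cdh11 bears on tumour immunity, matrix and the response to gemcitabine.

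MHC class II molecules are pairs of an alpha and a beta chain that show peptides from taken-up protein to CD4+ T cells. In mice the main pairs are I-A, made from H2-Aa and H2-Ab1, and I-E, whose beta chain is H2-Eb1 and whose alpha chain gene is broken in some strains, C57BL/6 among them, where it is annotated as H2-Ea-ps. Cd74, the invariant chain, fills the groove of a new pair and guides it to the endosome. There H2-DM, built from H2-DMa with H2-DMb1 or H2-DMb2, exchanges the remaining piece of Cd74 for peptide, and H2-O, built from H2-Oa with H2-Ob, holds H2-DM in check, mainly in B cells. Ciita is the co-activator that switches the family on through the X and Y boxes of its promoters. Dendritic cells, B cells and many macrophages carry class II constitutively, and interferon-gamma induces it in other cells.

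Promoter windows of 7 members were matched in RefSeq for GRCm38.p6, each with 250 bases before a start given there and 50 after it. The other members are H2-Ab1, Cd74 and Ciita. These starts can differ from the gene positions given below, and the H2-DMb1 and H2-DMb2 stretches shown lie inside those gene spans. The Y box was searched as GATTGG, the start of the X box as AACNNATG and the cAMP response element as TGACGTCA, on both strands, and none of these overlap one another in the windows shown. GATTGG stood in all 7 windows and in 16.1% of 32851 windows of all genes, AACNNATG in 4 of the 7 and in 8.86% of all, and TGACGTCA in 1 of the 7 and in 1.79% of all. AACNNATG followed within 40 bases by GATTGG on the same strand was found in 37 windows of the whole table, or 0.113%, and 4 of those belonged to members. Those 4 and 2 windows without the X-box letters are shown 5′ to 3′, with the matched letters in capitals, because they let the paired H2-Eb and H2-DMb genes, whose counts diverge, be compared base by base.
H2-Eb1: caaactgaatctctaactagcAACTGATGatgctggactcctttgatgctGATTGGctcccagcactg
H2-Eb2: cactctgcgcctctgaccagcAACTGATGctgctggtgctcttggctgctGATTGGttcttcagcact
H2-DMb1: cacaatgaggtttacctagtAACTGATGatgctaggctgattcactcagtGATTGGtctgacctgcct
H2-DMb2: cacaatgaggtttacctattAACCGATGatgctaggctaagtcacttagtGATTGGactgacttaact
H2-Aa: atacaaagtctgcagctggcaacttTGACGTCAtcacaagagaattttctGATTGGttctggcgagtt
H2-Oa: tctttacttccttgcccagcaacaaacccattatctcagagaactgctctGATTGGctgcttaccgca
These stretches of 68 bases are at chr17:34305757-34305824 (H2-Eb1), chr17:34325524-34325591 (H2-Eb2), chr17:34153079-34153146 (H2-DMb1), chr17:34145108-34145175 (H2-DMb2) and chr17:34092285-34092352 (H2-Oa) on the plus strand, and at chr17:34287855-34287922 (H2-Aa) on the minus strand. In the first 4, from 29 to 30 bases separate the starts of the 2 boxes. A match describes these letters only.

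On GRCm38, 8 of the 10 genes lie in one stretch of chromosome 17, with H2-Oa at chr17:34092340-34095234, H2-DMa at chr17:34119541-34139101, H2-DMb2 at chr17:34143307-34151555 and H2-DMb1 at chr17:34153072-34160230, all on the plus strand. H2-Ab1 follows at chr17:34257689-34269419, H2-Aa at chr17:34282744-34287823 on the minus strand, H2-Eb1 at chr17:34305867-34316674 and H2-Eb2 at chr17:34325665-34341412. H2-Ea-ps lies beside them at chr17:34341959-34344645 on the minus strand. Cd74 lies apart at chr18:60803848-60812652 and Ciita at chr16:10480059-10528418, both on the plus strand.

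Libraries held between 39388328 and 56559413 expected counts. Cdh11 had 5376, 6073 and 3588 counts in treated mice labelled heterozygous, against 6505, 2675 and 5116 in treated wild-type mice, so the genotype label of the treated mice is not borne out by this gene, with a fold of 0.984 and a 95% interval from 0.562 to 1.72. Untreated heterozygous mice had 6759, 5326 and 3710 counts of Cdh11, against 10221, 12258 and 8374 in untreated wild-type mice, with no overlap and a log2 fold change of -0.998 (edgeR adjusted p = 0.329). The sum of 4 Y-linked genes lay between 258 and 502 CPM (counts scaled to a common library total) in treated libraries labelled heterozygous and between 0.557 and 0.743 CPM in treated wild-type libraries, so sex and genotype cannot be told apart in treated mice. Untreated groups held libraries of both kinds, at 0.724, 183 and 39.8 CPM in heterozygous mice and 0.639, 203 and 0.828 CPM in wild-type mice. Heterozygous mouse 3 lay between the low and the high values, and its sex was not settled. Duct epithelium markers, 8 genes that include Krt19 and Epcam, were present in every library and summed to between 3188 and 9060 CPM. Acinar markers, 9 genes of normal pancreas, summed to between 0.363 and 1.49 CPM in treated libraries labelled heterozygous and to between 0.348 and 191 CPM in treated wild-type ones. In untreated mice these sums were between 0.159 and 0.263 CPM in heterozygous and between 2.29 and 465 CPM in wild-type libraries. Each library is 1 tumour, so class II RNA from fewer cells and less RNA per cell cannot be told apart.

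Levels per length were CPM divided by the kilobases of all annotated exons of a gene, merged, which can exceed the length of any 1 transcript. The orders given here depend on that length. By this measure Cd74 was the most abundant member, with a median of 131 CPM per kilobase over the 12 libraries, and it stood above H2-Aa in 12 of 12. The I-A chains followed at like levels, with medians of 21.0 CPM per kilobase for H2-Aa and 21.0 for H2-Ab1, and H2-Aa was the higher in 5 of 12 libraries. H2-Eb1 had a median of 10.6 CPM per kilobase and H2-DMb1 one of 7.07, with H2-Eb1 higher in 7 of 12 libraries. H2-DMb2 and H2-DMa were not ordered, with medians of 2.77 and 2.92 CPM per kilobase and H2-DMb2 above in 6 of 12. Ciita, which encodes a regulator and not a surface protein, was lower at 0.870 CPM per kilobase, and H2-Oa had a median of 0.195. H2-Eb2, a second I-E type beta chain gene, came last at 0.0371 CPM per kilobase. It had 0 counts in 4 libraries, 2 counts in 1 treated library labelled heterozygous and no more than 92 counts in any, so its values carry large counting error.

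The spread between tumours of a group was wide and largely shared by the members. Summed over the 10 genes, treated tumours labelled heterozygous held 390.4, 2058 and 1160.4 CPM, against 410.2, 129 and 329 CPM in treated wild-type tumours. Untreated heterozygous tumours held 541, 149.5 and 1130.1 CPM, against 145, 2244 and 353 CPM in untreated wild-type tumours. The ranges of every pair of groups overlapped. Treated mouse 2 labelled heterozygous and untreated wild-type mouse 2 stood highest, although they share neither genotype label nor treatment. Cd74 itself ranged 19.7-fold over the 12 libraries, H2-Aa 18.5-fold and Ciita 24.9-fold, whereas H2-Eb1 ranged 334-fold and H2-DMb2 87.4-fold.

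**Figure D1:**
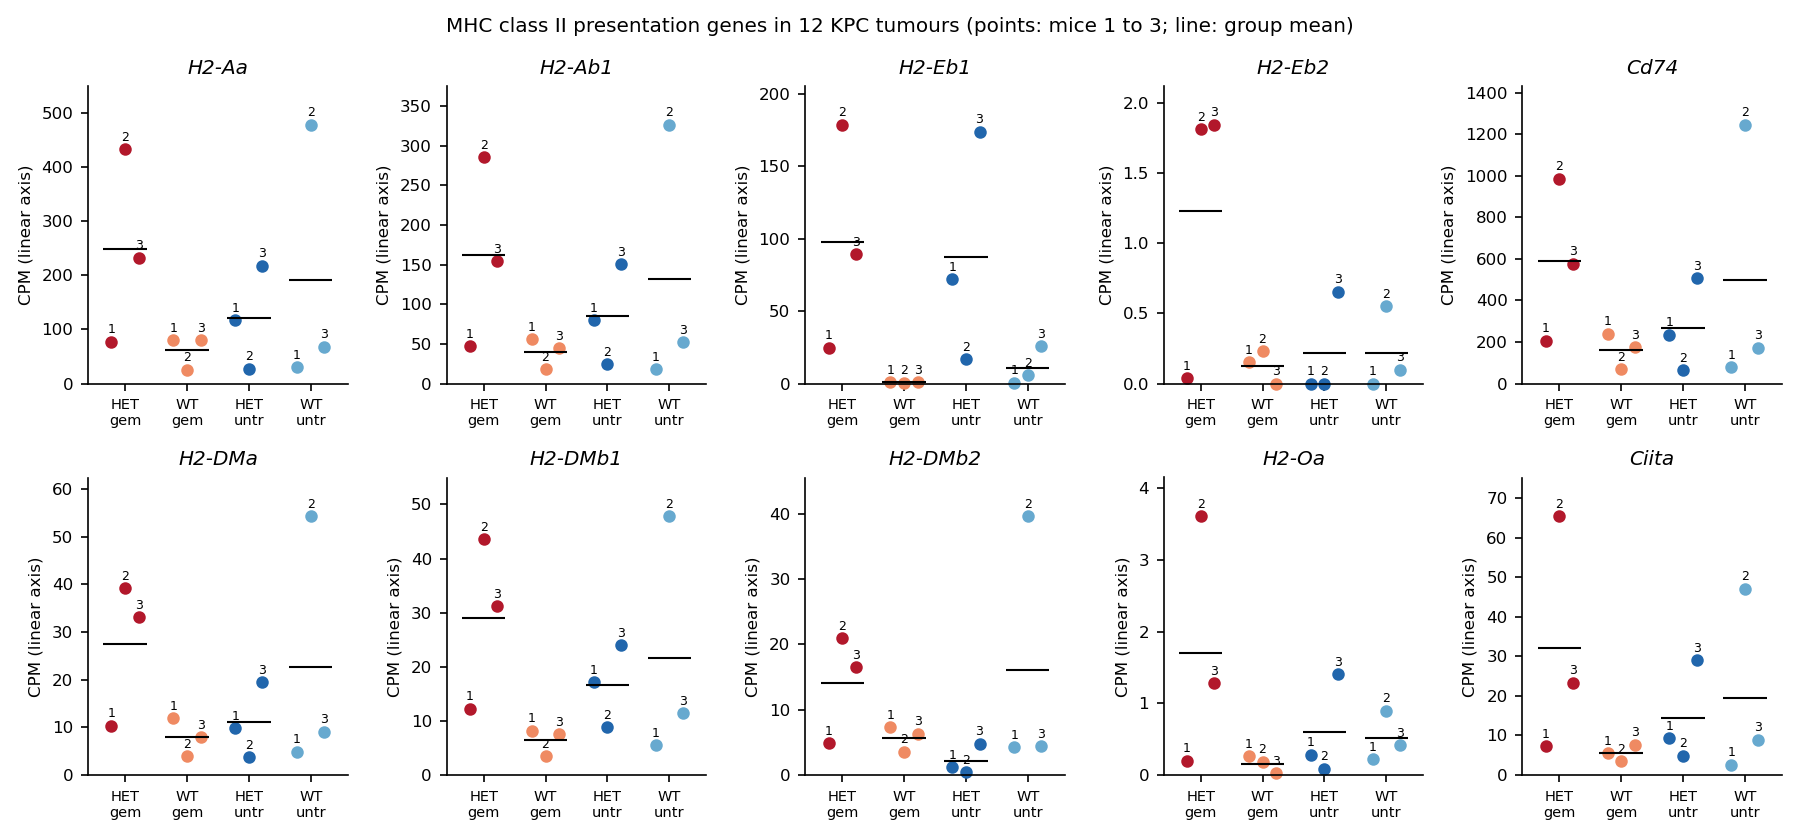
CPM of each of the 10 class II genes (linear axis, 1 panel a gene) in every library, by group, with HET for heterozygous and WT for wild-type; points are mice 1 to 3 and lines group means. Most panels repeat the same order of mice, with WT untreated mouse 2 and HET gemcitabine mouse 2 near the top, while H2-Eb1 stays at 1.01 CPM or less in the 3 WT gemcitabine libraries.

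Among treated mice, every one of the 10 genes had a higher fitted level in tumours labelled heterozygous than in wild-type tumours, and none passed the adjusted threshold of 0.05 in edgeR. The median log2 fold change was 2.11 over the members and -0.03 over the 24065 genes tested, of which 46.9% were higher. At an adjusted p under 0.05 edgeR called 0 members and 0.00416% of all genes, and DESeq2 called 1 member, H2-Eb1, and 0.904% of the genes it adjusted. At an unadjusted p under 0.05, 4 members were higher, against 4.66% of all genes. In 2 members, H2-Eb1 and H2-DMb1, the groups did not overlap and tumours labelled heterozygous were higher, as in 7.12% of all genes.

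H2-Eb1, the I-E beta chain, showed the greatest difference of the 10. It had 24.7, 179 and 89.5 CPM in treated tumours labelled heterozygous, against 1.01, 0.534 and 0.934 CPM in treated wild-type tumours. Each of the first 3 libraries was above each of the last 3 by a wide margin. The log2 fold change was 6.88 ± 1.42 (SE), with a 95% interval from 3.77 to 9.996. Its edgeR adjusted p was 0.546 and its DESeq2 adjusted p 2.84e-08, so its call depends on the tool, and the other edgeR settings gave an adjusted p between 0.112 and 1. H2-DMb1, a beta chain of the peptide editor, had 12.3, 43.5 and 31.3 CPM in treated tumours labelled heterozygous, against 8.19, 3.44 and 7.52 CPM in treated wild-type tumours. These groups also did not overlap, and the log2 fold change was 2.18 ± 0.76 (edgeR adjusted p = 0.571, DESeq2 adjusted p = 0.115).

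The I-A chains and Cd74 differed less and overlapped. H2-Aa had 77.2, 433 and 233 CPM in treated tumours labelled heterozygous, against 80.0, 25.8 and 79.5 CPM in treated wild-type tumours. Cd74 had 206, 986 and 577 CPM in treated tumours labelled heterozygous, against 240.1, 69.8 and 174 CPM in treated wild-type tumours. In both genes mouse 1 labelled heterozygous lay inside the wild-type range, and mice 2 and 3 lay above it. The log2 fold changes were 2.00 ± 1.04 for H2-Aa, 2.05 ± 1.02 for H2-Ab1 and 1.87 ± 1.02 for Cd74, with edgeR adjusted p between 0.710 and 0.757. Ciita, the co-activator of the family, had 7.26, 65.4 and 23.3 CPM in treated tumours labelled heterozygous, against 5.51, 3.46 and 7.64 CPM in treated wild-type tumours, again with mouse 1 inside the wild-type range. Its log2 fold change was 2.53 ± 1.06 (95% interval from 0.19 to 4.87, edgeR adjusted p = 0.641).

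The editor's other chains and the H2-O chain gave a like picture at lower levels. H2-DMa had 10.4, 39.2 and 33.2 CPM in treated tumours labelled heterozygous, against 11.97, 3.93 and 7.98 CPM in treated wild-type tumours, a log2 fold change of 1.79 ± 0.89. H2-DMb2 had the lowest fold change of the 10, with 4.90, 20.9 and 16.5 CPM in treated tumours labelled heterozygous and 7.30, 3.58 and 6.33 CPM in treated wild-type tumours, a log2 fold change of 1.30 ± 0.98 (edgeR adjusted p = 0.862). H2-Oa had 0.202, 3.61 and 1.28 CPM in treated tumours labelled heterozygous, against 0.262, 0.186 and 0.0240 CPM in treated wild-type tumours, a log2 fold change of 3.40 ± 1.23 (edgeR adjusted p = 0.578). Only mice 2 and 3 labelled heterozygous stood above the wild-type values in H2-Oa. H2-Eb2 had 2, 78 and 92 counts in treated tumours labelled heterozygous, against 7, 10 and 0 in treated wild-type tumours, with an interval of its log2 fold change from -0.83 to 7.29.

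In treated mice the sex-linked genes moved with genotype. A fit with a score of Xist and the Y-linked genes as a covariate put the members' median log2 fold change at 0.08 in place of 2.11.

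Among untreated mice, heterozygous tumours did not stand apart from wild-type tumours in the family as a whole, but H2-Eb1 and H2-DMb2 lay on opposite sides. The fitted level was higher in 3 members and lower in 7, against 46.3% of all genes lower. The median log2 fold change was -0.54 over the members and 0.04 over all genes tested. At an adjusted p under 0.05 edgeR called 0 members and 0.0166% of all genes; DESeq2 called 1 member, H2-DMb2, and 2.71% of all genes. At an unadjusted p under 0.05, 1 member was higher (5.51% of all genes) and 1 lower (6.65% of all genes). No member's groups failed to overlap, against 7.36% of all genes with the heterozygous group higher and 8.41% with it lower.

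H2-Eb1 had 71.8, 16.7 and 174 CPM in untreated heterozygous tumours, against 0.595, 5.76 and 25.8 CPM in untreated wild-type tumours. The overlap came from wild-type mouse 3, the only wild-type library of the 6 above 10 CPM. The log2 fold change was 3.03 ± 1.17 (95% interval from 0.46 to 5.59, edgeR adjusted p = 0.340, DESeq2 adjusted p = 0.0699), and 4.78 without wild-type mouse 3. H2-DMb2 had 1.19, 0.453 and 4.78 CPM in untreated heterozygous tumours, against 4.23, 39.6 and 4.40 CPM in untreated wild-type tumours. Here heterozygous mouse 3 overlapped the wild-type group. The log2 fold change was -2.90 ± 1.04 (95% interval from -5.20 to -0.61, edgeR adjusted p = 0.314, DESeq2 adjusted p = 0.0482), and the other edgeR settings gave an adjusted p between 0.313 and 0.732.

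For 6 other members, H2-Aa, H2-Ab1, H2-DMa, H2-DMb1, Cd74 and Ciita, the fitted direction turned when wild-type mouse 2 was left out. H2-Aa had 117, 27.5 and 218 CPM in untreated heterozygous tumours, against 29.8, 478 and 67.8 CPM in untreated wild-type tumours. Cd74 had 235, 63.2 and 508 CPM in untreated heterozygous tumours, against 78.9, 1245 and 173 CPM in untreated wild-type tumours. Ciita had 9.26, 4.92 and 29.1 CPM in untreated heterozygous tumours, against 2.62, 47.1 and 8.95 CPM in untreated wild-type tumours. Wild-type mouse 2 was the highest library in all 3 genes, and the other two wild-type libraries lay within or below the heterozygous range. The log2 fold changes were -0.67 ± 1.00 for H2-Aa, -0.89 ± 1.00 for Cd74 and -0.44 ± 1.01 for Ciita, and 1.32, 1.10 and 1.32 without wild-type mouse 2. The members' median became 1.19 without that mouse. H2-Oa and H2-Eb2 had log2 fold changes of 0.22 and 0.04, which turned without wild-type mouse 1, to -0.14 and -0.54. Without heterozygous mouse 3 H2-Oa turned to -1.45, and H2-Eb2 had 0 counts in both of the heterozygous libraries left. H2-Eb2 also turned without wild-type mouse 3, to -0.31.

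The gemcitabine contrasts use the same 12 libraries again, so their values are not independent of those above. Sex was uneven in them too. Y-linked genes were high in every treated library labelled heterozygous and low in every treated wild-type library, while the untreated groups were mixed. With the sex-chromosome covariate the direction of some members turned in both contrasts, as given in the closing section. In mice labelled heterozygous, all 10 members had a higher fitted level in treated than in untreated tumours, with a median log2 fold change of 1.14 beside -0.03 over all genes, of which 46.8% were higher. edgeR called 0 members and 0.00831% of all genes, DESeq2 called 0 members and 0.679% of all genes, and 1 member, H2-DMb2, was higher at an unadjusted p under 0.05 (4.42% of all genes). H2-DMb2 was also the only member whose groups did not overlap (6.64% of all genes with the treated group higher), at 4.90, 20.9 and 16.5 CPM in treated tumours labelled heterozygous against 1.19, 0.453 and 4.78 CPM in untreated heterozygous tumours. The margin between the closest mice was small, and the log2 fold change was 2.72 ± 1.04 (95% interval from 0.44 to 4.99, edgeR adjusted p = 0.597). H2-Eb1 differed least, with a log2 fold change of 0.16 ± 1.08 and an interval from -2.21 to 2.53. The median over the members lay between 0.38 and 2.01 when single libraries were left out.

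In wild-type mice, all 10 members had a lower fitted level in treated than in untreated tumours, with a median log2 fold change of -1.65 beside 0.01 over all genes, of which 48.9% were lower. edgeR called 0 members and 0% of all genes, DESeq2 called 0 members and 0.365% of all genes, and 2 members, H2-Eb1 and H2-DMb1, were lower at an unadjusted p under 0.05 (4.55% of all genes). In no member did the groups fail to overlap, against 6.53% of all genes with the treated group higher and 7.17% with it lower. H2-Eb1 had a log2 fold change of -3.70 ± 1.24 (95% interval from -6.43 to -0.96, edgeR adjusted p = 0.559, DESeq2 adjusted p = 0.0517). H2-DMb1 had one of -1.76 ± 0.75 (edgeR adjusted p = 0.565). H2-Eb1, H2-DMb1 and H2-Oa stayed lower when single libraries were left out, between -4.25 and -1.94 for H2-Eb1, between -2.21 and -0.40 for H2-DMb1 and between -2.25 and -0.98 for H2-Oa. Without untreated wild-type mouse 2 the members' median was 0.18 and Cd74 stood at 0.37.

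The gemcitabine effect was more positive in mice labelled heterozygous than in wild-type mice for each member, and the test of that difference called 0 members in edgeR (0.00831% of all genes). DESeq2 called 1, H2-DMb2, and 2.48% of all genes, and 4 members were higher at an unadjusted p under 0.05 in edgeR (7.14% of all genes). The median difference was 2.90 on the log2 scale beside -0.07 over all genes (45.8% above 0), with members between 2.56 for H2-DMb1 and 4.20 for H2-DMb2. With the counts of H2-DMb1 and H2-DMb2 summed, because reads may be misdivided between these near-identical copies, the difference was 2.83 ± 1.10 (edgeR adjusted p = 0.327). For H2-DMb2 alone the difference was 4.20 ± 1.43 (95% interval from 1.06 to 7.34, edgeR adjusted p = 0.286, DESeq2 adjusted p = 0.0430), and the other edgeR settings gave an adjusted p between 0.239 and 0.944. The median was 1.18 without untreated wild-type mouse 2 and 0.58 with the sex-chromosome covariate, which cannot part sex from genotype in treated mice.

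**Figure D2:**
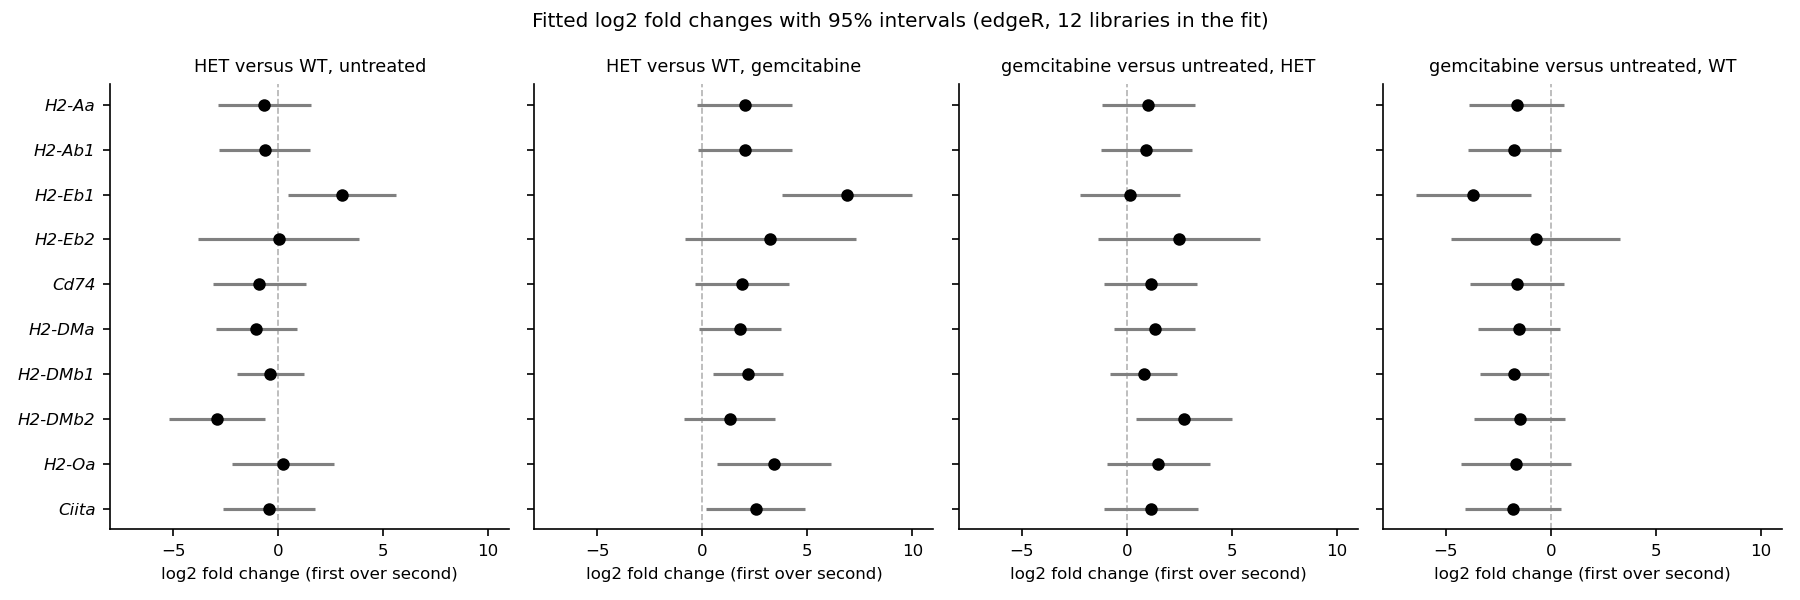
Log2 fold change (points) with its 95% interval (lines) of each class II gene from edgeR, 1 panel a comparison, with HET for heterozygous and WT for wild-type. The 4 panels are both genotype comparisons and both gemcitabine comparisons. In untreated mice the intervals of HET versus WT include 0 except for H2-Eb1 (0.46 to 5.59) and H2-DMb2 (-5.20 to -0.61), and in treated mice H2-Eb1 stands farthest right at 6.88.

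H2-DMb1 and H2-DMb2 are near-identical copies, with 95.7% identity over 77% of the H2-DMb1 transcript, so reads may be divided between them with error. Summed into 1 gene, their log2 fold change for treated tumours labelled heterozygous against treated wild-type tumours was 1.83 ± 0.79 (edgeR adjusted p = 0.648). For gemcitabine it was 1.20 ± 0.77 in mice labelled heterozygous (edgeR adjusted p = 0.711), where H2-DMb2 alone had 2.72, and -1.64 ± 0.78 in wild-type mice (edgeR adjusted p = 0.594). For untreated heterozygous against untreated wild-type tumours it was -1.001 ± 0.77 (edgeR adjusted p = 0.640). No other member had a copy at 95% identity or more over 50% of its transcript. A gene on the opposite strand that overlaps H2-Eb1, Gm20513, had at most 3 counts in any library.

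The counts of H2-Eb1 and H2-DMb2 relative to their neighbours differed widely between libraries, in ratios within a library that need no scaling between libraries. Cd74 counts were between 200 and 300 per 100 of H2-Aa in all 12 libraries, and H2-Ab1 counts between 56.1 and 87.4. H2-Eb1 counts per 100 of H2-Aa were 32.1, 41.3 and 38.5 in treated tumours labelled heterozygous, against 1.26, 2.07 and 1.18 in treated wild-type tumours. They were 61.4, 60.5 and 79.8 in untreated heterozygous tumours, against 2.00, 1.21 and 38.0 in untreated wild-type tumours. The values thus fell into 3 bands with nothing between them, of 5 libraries from 1.18 to 2.07, of 4 from 32.1 to 41.3 and of 3 from 60.5 to 79.8. The low band held wild-type libraries alone, the high band the untreated heterozygous ones, and the middle band the treated ones labelled heterozygous with untreated wild-type mouse 3.

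The same 3 sets of libraries came apart in the other direction in H2-DMb2. Its counts per 100 of H2-DMb1 were 39.9, 48.0 and 52.8 in treated tumours labelled heterozygous, against 89.1, 104 and 84.1 in treated wild-type tumours. They were 6.91, 5.11 and 19.9 in untreated heterozygous tumours, against 76.8, 82.8 and 38.3 in untreated wild-type tumours. Mouse 3 of the untreated wild-type group again stood with the treated tumours labelled heterozygous. The bands were 76.8 to 104, 38.3 to 52.8 and 5.11 to 19.9 for the libraries of low, middle and high H2-Eb1. H2-DMb2 and H2-Eb1 had the lowest correlation of any 2 members, with r of 0.0436 on log2 CPM over 12 libraries, where Cd74 and H2-Aa had 0.994.

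H2-Ea-ps, the I-E alpha chain gene next to H2-Eb2, was at 0 in all 3 untreated heterozygous libraries, against 16, 242 and 41 counts in untreated wild-type libraries. Against a floor of 3 counts per library, the untreated heterozygous group was at least 35.4-fold below the wild-type mean (edgeR adjusted p = 0.186, DESeq2 adjusted p = 7.39e-06). That mean of 2.25 CPM rests largely on wild-type mouse 2, at 5.58 CPM. Wild-type mouse 1 had 0.353 CPM, so the bound does not hold for each mouse. Treated tumours labelled heterozygous had 11, 120 and 53 counts, and treated wild-type tumours 36, 14 and 46. Per 100 counts of H2-Aa these were 0.288, 0.645 and 0.457 in treated tumours labelled heterozygous and 0.984, 1.26 and 1.39 in treated wild-type tumours. Untreated wild-type libraries had 1.19, 1.17 and 1.19, so in this ratio mouse 3 stood with its own group.

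Farther along chromosome 17, 2 genes picked after their values were seen followed the same sets of libraries. BC023719 at chr17:36111426-36117121 had 2.86, 2.68 and 2.71 CPM in treated tumours labelled heterozygous, against 7.87, 5.85 and 5.03 CPM in treated wild-type tumours. It had 0 counts in all 3 untreated heterozygous tumours, against 6.39, 5.32 and 3.07 CPM in untreated wild-type tumours. H2-T23, a non-classical class I gene at chr17:36029773-36032855, had between 29.2 and 55.6 CPM in the 3 libraries of high H2-Eb1, between 13.4 and 34.1 CPM in the 4 of the middle band and between 4.69 and 6.98 CPM in the 5 of the low band, so its middle and high ranges overlapped. These mice are of mixed C57BL/6 and 129 background, the sources used do not give the class II alleles they carry, and the reads were assigned to the GRCm38 reference. Each band was mostly made of 1 or 2 of the study's groups, but the bands did not follow the genotype label alone. Libraries labelled heterozygous lay in the middle and high bands, and untreated wild-type mouse 3 lay in the middle one. The part of inherited sequence differences in these ratios was not tested.

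**Figure D3:**
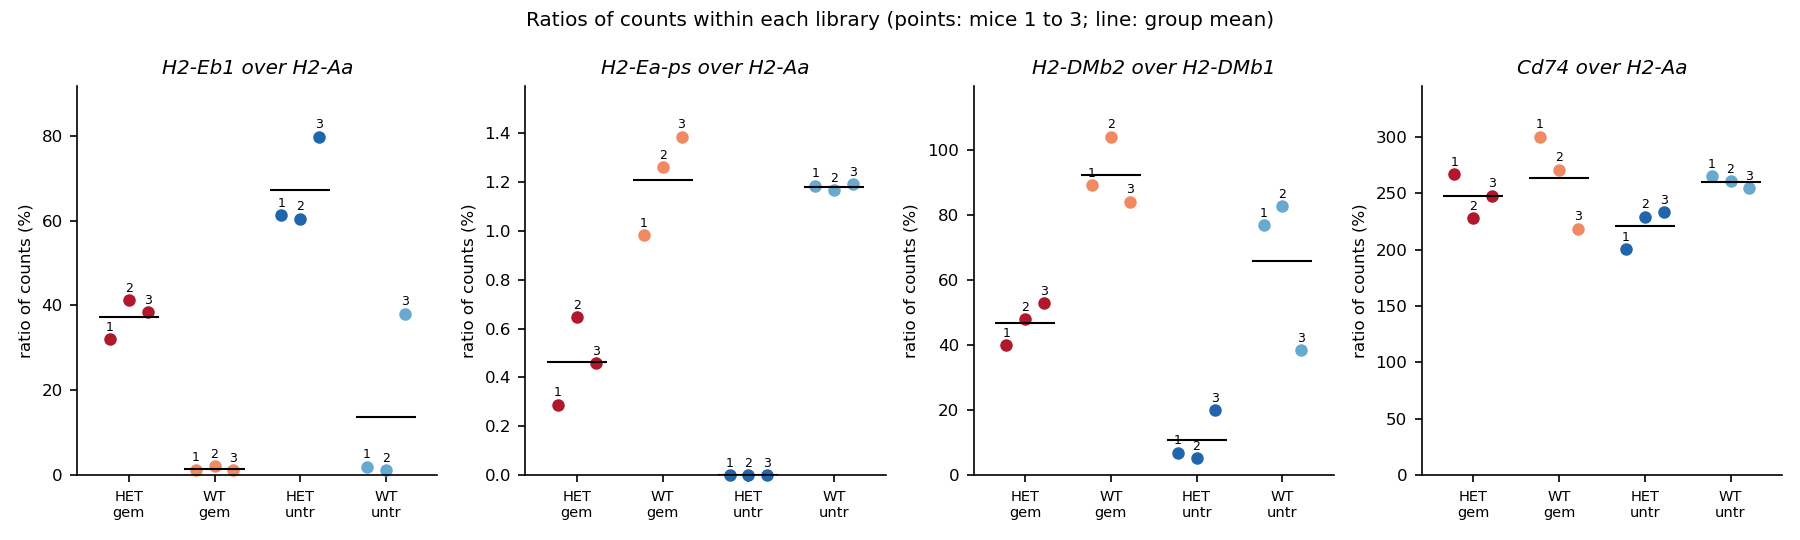
Counts of H2-Eb1, of H2-Ea-ps and of Cd74 over H2-Aa, and of H2-DMb2 over H2-DMb1, in each library, as percent, by group, with HET for heterozygous and WT for wild-type; points are mice 1 to 3 and lines group means. WT untreated mouse 3 stands at 38.0% in the first ratio and 38.3% in the H2-DMb ratio, beside the HET gemcitabine libraries and apart from the other two mice of its group.

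Leukocyte markers were higher in treated tumours labelled heterozygous along with the class II genes. The 5 pan-leukocyte genes, Ptprc, Cd52, Cd53, Laptm5 and Coro1a, summed to 254, 466 and 489 CPM there, against 189, 148 and 117 CPM in treated wild-type tumours. All 5 were higher at an unadjusted p under 0.05 in edgeR (4.66% of all genes) with no overlap (7.12% of all genes, higher). Their median log2 fold change was 1.61, and edgeR and DESeq2 called 0 of them after adjustment. Macrophage markers, 10 genes such as Adgre1 and C1qa, summed to between 1169 and 1794 CPM in treated tumours labelled heterozygous and to between 551 and 1082 CPM in treated wild-type tumours. Of these, 10 of 10 were higher (46.9% of all genes), 4 at an unadjusted p under 0.05 (4.66%) and 7 without overlap (7.12%). edgeR and DESeq2 called 0 of them. Per count of Ptprc the class II sum did not separate these groups, with 587, 1035 and 624 per 100 counts in treated tumours labelled heterozygous, against 876, 324 and 993 in treated wild-type tumours. In untreated mice the leukocyte sum lay between 147 and 179 CPM in heterozygous tumours and between 181 and 553 CPM in wild-type tumours, and the class II sum per 100 counts of Ptprc was 1203, 359 and 1677 in heterozygous tumours against 320, 1214 and 701 in wild-type tumours.

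The cell types that carry class II were present at different levels in single tumours. Conventional dendritic cell markers, 9 genes such as Flt3 and Itgax, summed to 27.2, 92.9 and 81.4 CPM in treated tumours labelled heterozygous, against 56.6, 28.8 and 22.9 CPM in treated wild-type tumours. B cell markers, 7 genes such as Ms4a1 and Cd79a, summed to 3.35, 49.9 and 29.3 CPM in treated tumours labelled heterozygous, against 6.71, 10.7 and 2.78 CPM in treated wild-type tumours. Both sums were high in the same 2 tumours, mice 2 and 3 labelled heterozygous, in which H2-Oa and the class II sum were also high. The T cell list, 8 genes, followed with between 2.38 and 27.2 CPM in treated tumours labelled heterozygous and between 2.21 and 3.50 CPM in treated wild-type tumours. At an unadjusted p under 0.05 in edgeR, 3 of 9 dendritic cell, 4 of 7 B cell and 6 of 8 T cell genes were higher (4.66% of all genes). None of these genes was lower at that threshold (2.89%). After adjustment edgeR called 0 of them, and DESeq2 called 0, 2 and 1 (0.904% of the genes it adjusted). Plasma cell markers, 6 genes that include immunoglobulin genes, summed to 542.0, 1751 and 3099.6 CPM in treated tumours labelled heterozygous, against 630.1, 839 and 516 CPM in treated wild-type tumours. Of these 6, edgeR called 0, 4 were higher at an unadjusted p under 0.05 (4.66% of all genes) and DESeq2 called 3 (0.904%), with a median log2 fold change of 3.90. Sdc1 was the 1 gene of the 6 with a lower fitted level. Its means were 409 CPM in treated tumours labelled heterozygous and 574 CPM in treated wild-type tumours. The mean sum of the 6 genes in those wild-type tumours was 662 CPM, so it was mostly Sdc1. Lymphoid follicle markers, 5 genes such as Cxcl13, summed to 7.73, 40.9 and 55.5 CPM in treated tumours labelled heterozygous, against 6.93, 15.2 and 0.695 CPM in treated wild-type tumours. Of these 5, edgeR called 0, 3 were higher at an unadjusted p under 0.05 (4.66% of all genes) and DESeq2 called 1 (0.904%). Their median log2 fold change was 3.40. The plasma cell and follicle sums were again highest in mice 2 and 3 labelled heterozygous. Duct epithelium markers ran the other way, at 4759, 3848 and 3509 CPM in treated tumours labelled heterozygous, against 4393, 5592 and 9060.5 CPM in treated wild-type tumours. Of these 8, 1 was higher (46.9% of all genes) and 7 were lower, 3 of them at an unadjusted p under 0.05 (2.89% of all genes). edgeR called 0 of them and DESeq2 0. In untreated wild-type mouse 2, the dendritic cell sum was 155 CPM and the B cell sum 7.30 CPM, with all 7 B cell genes detected. All 9 dendritic cell genes and all 7 B cell genes were detected in every treated library labelled heterozygous, and the part of any of these cell types in the class II values was not tested.

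**Figure D4:**
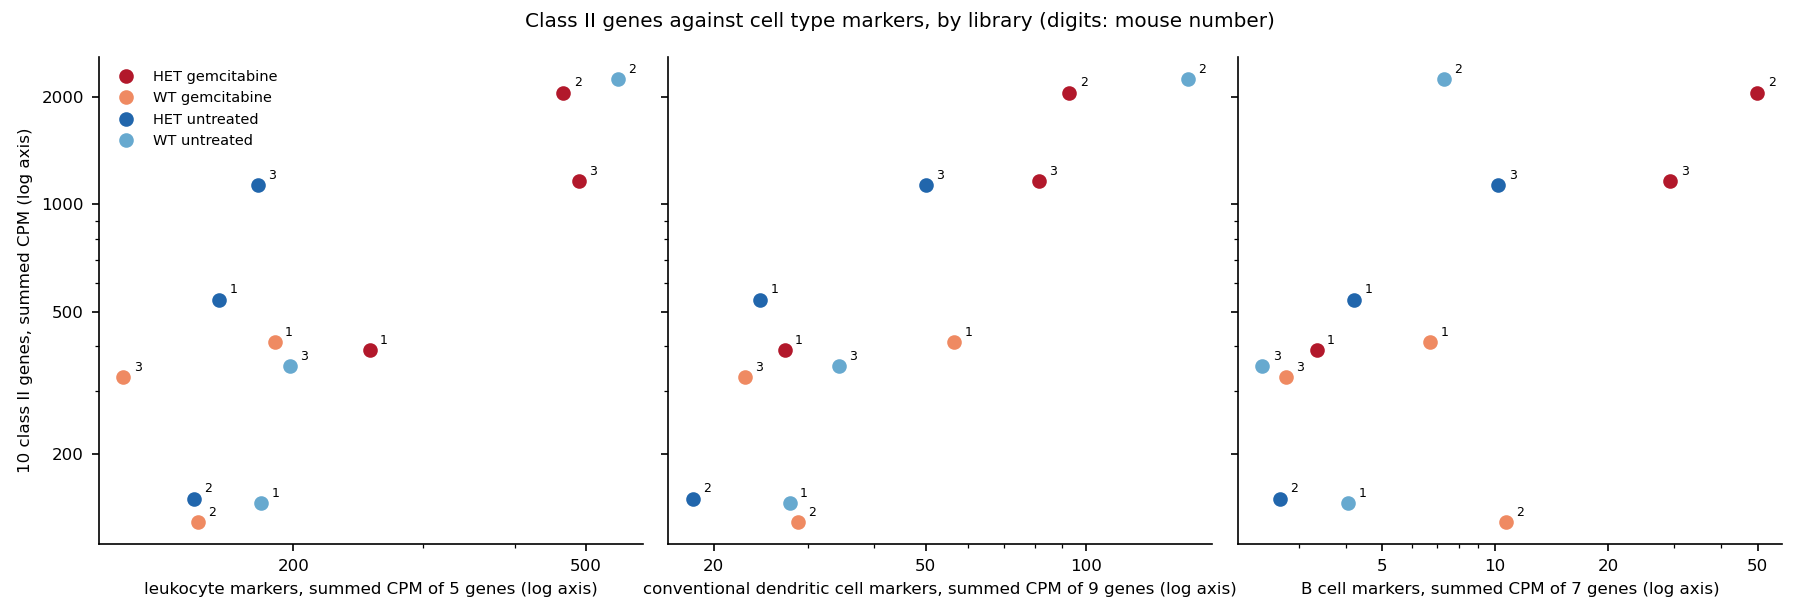
Summed CPM of the 10 class II genes (vertical, log axis) against summed CPM of leukocyte, conventional dendritic cell and B cell markers (horizontal, log axes) in each library, with HET for heterozygous and WT for wild-type; digits are mouse numbers. WT untreated mouse 2, at 2244 CPM of class II, lies at the right of the first 2 panels and left of the middle of the B cell panel at 7.30 CPM, whereas HET gemcitabine mouse 2 lies at 49.9 CPM there.

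The genes whose log2 CPM ran most like the members' mean over the 12 libraries were Ly86 (r = 0.976), Lair1 (0.970), Cd48 (0.966), Itgax (0.957) and Slamf9 (0.954), followed by Ccr2, Rasal3, Cd300c2, Mgl2 and Tlr9 (0.941 to 0.951). Itgax encodes the integrin CD11c of dendritic cells and some macrophages, Ccr2 the chemokine receptor of inflammatory monocytes, and Mgl2 a lectin of macrophages and dendritic cells. These coefficients describe 12 points that share the tissue and the libraries.

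The genes that process peptide and handle class II molecules were mostly higher with the members in treated tumours labelled heterozygous, 9 of 10 against treated wild-type tumours, and edgeR called 0. Of the 10, 3 were higher at an unadjusted p under 0.05 (4.66% of all genes), 4 did not overlap (7.12% of all genes, higher), DESeq2 called 0 (0.904% of all genes), and the median log2 fold change was 0.61. March1, the ubiquitin ligase that removes class II from the surface, had 26.8, 25.0 and 33.8 CPM in treated tumours labelled heterozygous, against 16.7, 10.2 and 12.4 CPM in treated wild-type tumours, a log2 fold change of 1.12 ± 0.32 (edgeR adjusted p = 0.546). Ctss, the protease that trims Cd74, had 296, 358 and 517 CPM in treated tumours labelled heterozygous, against 242, 109 and 149 CPM in treated wild-type tumours, a log2 fold change of 1.23 ± 0.43 (edgeR adjusted p = 0.572). H2-Ob, the partner of H2-Oa, had 11, 293 and 164 counts in treated tumours labelled heterozygous, against 20, 19 and 7 in treated wild-type tumours, and overlapped as H2-Oa did. In untreated mice the list ran the other way, with 9 of 10 lower in heterozygous tumours (46.3% of all genes) and 0 called by edgeR. At an unadjusted p under 0.05, 3 were lower (6.65% of all genes), and DESeq2 called 1, H2-Ea-ps (2.71%). For the difference of the gemcitabine effects, edgeR called 0 of the 10, and DESeq2 called 3, H2-Ea-ps, March1 and Ctss (2.48% of all genes). At an unadjusted p under 0.05 in edgeR, 5 were higher (7.14% of all genes).

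The list of promoter factors holds the subunits that bind the X and Y boxes, Creb1, and the acetyltransferase co-activators Crebbp and Kat2b, and it was close to even in direction. Of its 9 genes, 4 were higher and 5 lower in treated tumours labelled heterozygous than in treated wild-type tumours, with a median log2 fold change of 0.00, and 0 were called by edgeR, 0 by DESeq2 and 0 at an unadjusted p under 0.05. Rfx5, the X-box binding subunit, had 25.5, 23.3 and 19.1 CPM in treated tumours labelled heterozygous, against 16.8, 17.3 and 23.8 CPM in treated wild-type tumours. In untreated mice 2 of the 9, Rfx5 and Nfyb, did not overlap, with heterozygous tumours higher (7.36% of all genes). Rfx5 had 21.5, 19.7 and 27.9 CPM in heterozygous tumours, against 16.0, 18.02 and 15.7 CPM in wild-type tumours. Its log2 fold change was 0.48 ± 0.22 (edgeR adjusted p = 0.408). Nfyb had between 27.0 and 27.4 CPM in heterozygous and between 20.9 and 22.2 CPM in wild-type tumours. The narrow range of the promoter factors stands beside the 24.9-fold range of Ciita.

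The interferon-gamma genes were not all highest in the same tumour. Ifng itself had a count in 1 library, untreated heterozygous mouse 3, with 1 count, and was not tested. The induced chemokine Cxcl9 had 24.4 CPM in that tumour and no more than 1.40 CPM in any other. Cxcl10, another induced chemokine, was highest in treated wild-type mouse 3, at 20.03 CPM, with 6.09 CPM in untreated heterozygous mouse 3. Summed over the list, untreated heterozygous mouse 3 had 702 CPM, below treated wild-type mouse 3 at 821 CPM and the untreated wild-type tumours at 767 to 798 CPM. From the class I list, Nlrc5, the class I counterpart of Ciita, had 52.0 CPM in untreated heterozygous mouse 3 and at most 16.1 CPM elsewhere, and H2-K1, a classical class I chain, had 461 CPM there and at most 182 CPM elsewhere. That tumour ranked 4 of 12 by the mean level of the class II genes. Of the 11 interferon-gamma genes tested, 8 were higher (46.9% of all genes) and 3 lower in treated tumours labelled heterozygous than in treated wild-type tumours. edgeR called 0 and DESeq2 0. At an unadjusted p under 0.05, 1 was higher (Irf8, beside 4.66% of all genes) and 1 lower (Cxcl10, beside 2.89%).

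Class I presentation and co-stimulation genes were both higher in treated tumours labelled heterozygous than in treated wild-type tumours, in 9 of 9 and 5 of 5 (46.9% of all genes). edgeR called 0 of either list. The medians of their log2 fold changes were 0.77 and 0.75, below that of the class II members, a contrast that was not tested. In the class I list 3 genes were higher at an unadjusted p under 0.05 (4.66% of all genes), and DESeq2 called 0. Psmb8, a subunit of the immunoproteasome, had 13.7, 21.6 and 22.6 CPM in treated tumours labelled heterozygous, against 10.4, 6.87 and 5.85 CPM in treated wild-type tumours, a log2 fold change of 1.32 ± 0.57 (edgeR adjusted p = 0.648). Cd86, a ligand of CD28 on antigen-presenting cells, had 5.18, 10.9 and 7.10 CPM in treated tumours labelled heterozygous, against 2.53, 2.09 and 2.90 CPM in treated wild-type tumours. Its groups did not overlap, the log2 fold change was 1.62 ± 0.42 (edgeR adjusted p = 0.546, DESeq2 adjusted p = 0.0244), and it was the 1 co-stimulation gene that DESeq2 called and that had an unadjusted p under 0.05 in edgeR.

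Over the 5 pathway lists together, which hold 44 tested genes beside the members, edgeR called 0 in each of the 5 comparisons. At an unadjusted p under 0.05, 8 were higher (4.66% of all genes) and 1 lower (2.89%) in treated tumours labelled heterozygous than in treated wild-type tumours. In untreated heterozygous against untreated wild-type tumours 3 were higher (5.51% of all genes) and 5 lower (6.65%), so the higher count was near the share of all genes. With gemcitabine, 5 were higher (4.42% of all genes) and 0 lower (3.48%) in mice labelled heterozygous, and 1 was higher (4.05%) and 6 lower (4.55%) in wild-type mice. For the difference of these effects 9 were higher (7.14%) and 1 lower (5.52%). DESeq2 called 4 of the 44 for the difference of the gemcitabine effects, the fourth being Cxcl10, 1 in treated mice, 1 in untreated mice, 1 for gemcitabine in mice labelled heterozygous (H2-Ea-ps) and 0 for gemcitabine in wild-type mice.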

How the data were processed

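The authors deposited 1 file of expected counts per library, made with RSEM on GRCm38 per the submitters' processing notes; the values are whole numbers. RNA was depleted of ribosomal RNA and made into stranded, random-primed libraries, per the labels' protocols. The aligner, annotation and strand setting of the counting are not given in the sources used. Ambiguous reads are divided by RSEM: it shares out reads that map to several genes, and reads of alleles unlike the reference may be lost. The series-wide table repeats the 12 library files and was left out. Groups and mouse numbers came from the sample titles.

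Symbols and positions came from GENCODE M21 by gene ID, which matched 52403 of 52636 genes. edgeR 4.0.16 in R 4.3.3 (limma 3.58.1) kept 24065 genes with filterByExpr, holding at least 99.9% of each library's counts. A robust quasi-likelihood model with TMM scaling (factors 0.897 to 1.09) took all 12 libraries with a mean for each group, and Benjamini-Hochberg adjustment ran over every tested gene (threshold 0.05). The biological coefficient of variation was 46.4%. Tests were checked on simulated counts. A ± is the SE of a log2 fold change. CPM uses TMM-scaled totals unless counts are named. Libraries of a group are separate mice. Likeness was measured on log2 CPM (prior count 2), among genes with a mean of at least 1 CPM, and the 10 highest are named. From each pathway list up to 4 genes of smallest p may be named. Floors of 3 counts cover counting error only. Copies were sought with blastn 2.17.0. DESeq2 1.42.0 was an alternative test; other alternatives were DESeq2 size factors, no filter, only the groups compared, a replicate block, a sex-chromosome covariate, summed H2-DMb counts and leaving out each library. 1 B cell marker is not reported here and was left out of that list. The members and lists were chosen with earlier results of these data known.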

Additional observations from a re-analysis of the deposited data

How the results depend on the processing

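edgeR called 0 members in all 5 comparisons under every alternative run. DESeq2 called 1 for heterozygous against wild-type in untreated mice, 1 in treated mice and 1 for the difference of effects. Of 687 values of single members under alternatives, 33 turned sign.

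Without single libraries the members' median log2 fold change ranged from -1.45 to 1.19 for heterozygous against wild-type in untreated mice, from 1.46 to 2.52 in treated mice, from 0.38 to 2.01 for gemcitabine in mice labelled heterozygous, from -2.14 to 0.18 for gemcitabine in wild-type mice and from 1.18 to 3.81 for the difference. Without untreated wild-type mouse 2 alone it was 1.19, 0.18 and 1.18 in the untreated, wild-type gemcitabine and difference comparisons. With the sex-chromosome covariate it was 0.0802 for heterozygous against wild-type in treated mice and 0.58 for the difference. In treated mice this covariate coincides with the genotype label, so these values cannot part sex from genotype.

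For heterozygous against wild-type in untreated mice, the ranges without single libraries were -1.41 to 1.32 for H2-Aa, -1.35 to 1.28 for H2-Ab1, -1.74 to 0.66 for H2-DMa, -0.83 to 0.98 for H2-DMb1, -1.75 to 1.10 for Cd74, -1.46 to 1.32 for Ciita, -1.45 to 0.91 for H2-Oa and -6.32 to 2.07 for H2-Eb2. H2-Eb2 was -0.0014 in DESeq2, -0.0054 with the replicate block and -0.28 with the covariate, and Ciita was 0.24 with the block. For gemcitabine in wild-type mice they were -2.14 to 0.35 for H2-Aa, -2.27 to 0.17 for H2-Ab1, -1.99 to 0.20 for H2-DMa, -1.94 to 0.42 for H2-DMb2, -2.14 to 0.37 for Cd74 and -1.44 to 1.31 for H2-Eb2, which was 0.46 with the block and 1.49 with the covariate, where H2-DMb2 was 0.089. For gemcitabine in mice labelled heterozygous H2-Eb1 ranged from -0.61 to 1.14, and the covariate gave -0.0583 for H2-Aa and -0.13 for H2-Ab1. In treated mice the covariate gave -0.57 for H2-Eb2, -0.0427 for H2-DMa, -1.13 for H2-DMb2 and -0.21 for Cd74, and -0.28 for H2-Eb2 in the difference. The cause of these turns was not tested.

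The mouse numbers did not pair the samples: deviations of same-numbered mice correlated between -0.247 and 0.173, above 0.1 in 4 of 18 pairs. With the replicate block the members' medians were -0.05 and 1.70 for heterozygous against wild-type in untreated and treated mice, 0.72 and -1.03 for gemcitabine in heterozygous and wild-type mice, and 1.94 for the difference, with 0 members called. With 3 mice a group, the within-group SD of the members' mean log2 CPM was 1.37, and for H2-Eb2, H2-Oa and H2-Ea-ps low counts add error.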
